A study of Mus musculus with 12 samples.

Results

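Cultured myoblasts were compared with freshly isolated muscle stem cells (MuSCs) of the same mice. The comparison covers all genes of the deposited table, by pathway, transcription factor, surface gene and secreted gene. The comparison uses 6 of the 12 libraries of the series, 3 of MuSCs and 3 of myoblasts. They came from 3 mice, and each mouse gave a library of both kinds, numbered replicate 04, 05 and 06 in the labels. The other 6 libraries, from MuSCs of Nedd4L WT and Nedd4L-cKO mice, were not used. MuSCs were sorted from hindlimb muscle as ITGA7-positive cells without CD31, CD45, CD11b or SCA1. Myoblasts were MuSCs sorted in the same way, then kept for 3 days in growth medium with serum and basic Fgf on collagen and taken up with trypsin. All 6 libraries are labelled wild type, the mice had a C57BL/6 background, those used for myoblasts were male, and the age of these 3 mice was not given in the sources used here. A library was made from 1000 pooled cells with full-length SMART-Seq chemistry, so it averages over cells, and a lower level of a gene in a library cannot be told apart from fewer cells that express it. Only the myoblast libraries followed 3 days of culture in serum and basic Fgf and detachment with trypsin. The effects of these steps cannot be told apart. Fresh MuSCs were also released from muscle with enzymes and handled in serum for the sort.

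MuSCs lie between the muscle fibre and its basement membrane and are quiescent in resting muscle. Their hallmark is the transcription factor Pax7, and Notch signals, calcitonin receptor and contact with a collagen-rich niche help to keep them quiescent. Dissociation of the tissue and sorting are known to induce early-response genes within the time they take. In growth medium the cells enter the cell cycle as Myod1-expressing myoblasts. They then leave it again to become Myog-expressing myocytes, which switch on contractile genes and fuse.

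Of 16503 genes listed, 15345 reached 10 normalized counts in 3 or more of the 6 libraries and were tested with limma on log2(RPM + 1), where RPM is the normalized count after scaling the mean library total to 1000000. Differences are myoblast minus MuSC in log2 units, with ± for the standard error of the fit, and mean RPM is given with ± for the SD over the 3 libraries of a group. A gene is said to have risen or fallen where its Benjamini-Hochberg adjusted p was at most 0.05. Of all tested genes, 3402 rose (22.2%) and 3164 fell (20.6%), so 42.8% were called, and the median difference was 0.04 log2 units. The values of the 2 groups did not overlap for 8466 tested genes, which is 55.2% of them, and for 98.6% of the called ones. Every gene said below to have risen or fallen in this fit of all 6 libraries had MuSC and myoblast values that did not overlap, which need not hold for calls given only without a library, with a block or with another scaling. Since calls were this common, the counts for a gene group below are read against 22.2% and 20.6%. Levels are not corrected for gene length and are compared between libraries, and where a gene is said to carry a summed level, this is its share of counts, not of molecules. A count of members gives each gene the same weight, and the summed level went against the majority of calls, without overlap of the groups, for the Notch, redox, bHLH, G protein-coupled receptor, growth factor, Wnt ligand and cytokine groups below.

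Library totals ran from 33189802 to 37595659 normalized counts, and 12341 to 12993 genes reached 1 RPM. Pearson correlations of log2(RPM + 1) were 0.966 to 0.979 within MuSCs, 0.949 to 0.988 within myoblasts and 0.801 to 0.815 between the groups. MuSC replicate 04 correlated at 0.967 with MuSC replicate 05 and at 0.966 with MuSC replicate 06, which correlated at 0.979 with each other. Myoblast replicate 04 stood apart from myoblast replicates 05 and 06. It was at least 1 log2 unit below their mean for 1643 tested genes and at least 1 log2 unit above it for 726. Its sarcomere genes were lower, with a median of -1.34 log2 units, and its DNA replication genes higher, with a median of 1.00 log2 units. Counts for a gene group without a library, with the mouse as a block or with another scaling are given where they moved by over 1.5 times. Scaling each library to its own total moved the median difference of all genes from 0.04 to 0.14 log2 units and the calls to 3880 higher and 2714 lower.

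The labels were checked against markers of the cell types. Pax7, the factor that defines MuSCs, had 249, 158 and 151 RPM in MuSCs and 18.9, 21.2 and 17.8 RPM in myoblasts, written here and below in the order of replicates 04, 05 and 06. All 3 myoblast libraries lay below all 3 MuSC libraries, and Pax7 fell by 3.17 ± 0.24 log2 units (adjusted p = 2.4e-05). Summed over 10 MuSC markers, the level was 8646, 5872 and 6384 RPM in MuSCs and 859, 927 and 885 RPM in myoblasts. Itga7, the integrin used for the sort, was measured in all libraries, at 206 ± 37.4 RPM in MuSCs and 305 ± 73.1 RPM in myoblasts, and did not pass the test. Itga7 rose by 0.72 log2 units without myoblast replicate 04 (limma adjusted p = 0.019) and by 0.68 log2 units with each library scaled to its own total (limma adjusted p = 0.039). Haematopoietic markers summed to 3.49 to 7.98 RPM in every library. Endothelial markers summed to 49, 49 and 47.4 RPM in MuSCs and 24.8, 13.9 and 15.8 RPM in myoblasts, with Tek at 29.8 ± 4.68 RPM in MuSCs and 0.41 ± 0.46 RPM in myoblasts, Pecam1 at 12.9 ± 3.27 RPM in MuSCs and 9.73 ± 2.77 RPM in myoblasts and the endothelial cadherin Cdh5 at or near 0. Markers of fibro-adipogenic progenitors and fibroblasts, the mesenchymal cells of muscle, summed to 3128, 3735 and 3252 RPM in MuSCs and 378, 375 and 266 RPM in myoblasts. Of the 10 tested, 6 fell and 2 rose. The sum was carried by the collagen Col3a1 and by Gsn, and Dpt, a matrix protein of fibroblasts, had 411, 461 and 507 RPM in MuSCs and 0, 0 and 0 RPM in myoblasts. The proteoglycan Dcn had 5.75, 46.1 and 19.8 RPM in MuSCs and 0.014, 0.7 and 0.22 RPM in myoblasts. The markers Pdgfra, Pi16, Lum, Cd248 and Mfap5 reached at most 2.83 RPM in any library. The part of such cells in the lower matrix genes of myoblasts was not tested. Smooth muscle and pericyte markers summed to 1638, 1634 and 1340 RPM in MuSCs and 3139, 3019 and 3325 RPM in myoblasts. Of the 9 tested, however, only 1 rose and 1 fell. Without myoblast replicate 04 or with the mouse as a replicate block 3 rose, and with each library scaled to its own total 2 rose. Mature myofiber markers summed to 615, 539 and 361 RPM in MuSCs and 4286, 6331.5 and 10032 RPM in myoblasts. Tenocyte markers summed to 11, 11.8 and 10.9 RPM in MuSCs and 23.4, 107 and 79.8 RPM in myoblasts. Most of this sum in myoblasts was Scx, at 20.7, 104.5 and 77 RPM, the only 1 of the 2 tested that rose. Adipocyte markers summed to at most 1.2 RPM in MuSCs and to 9.41 to 11.4 RPM in myoblasts.

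**Figure D1:**
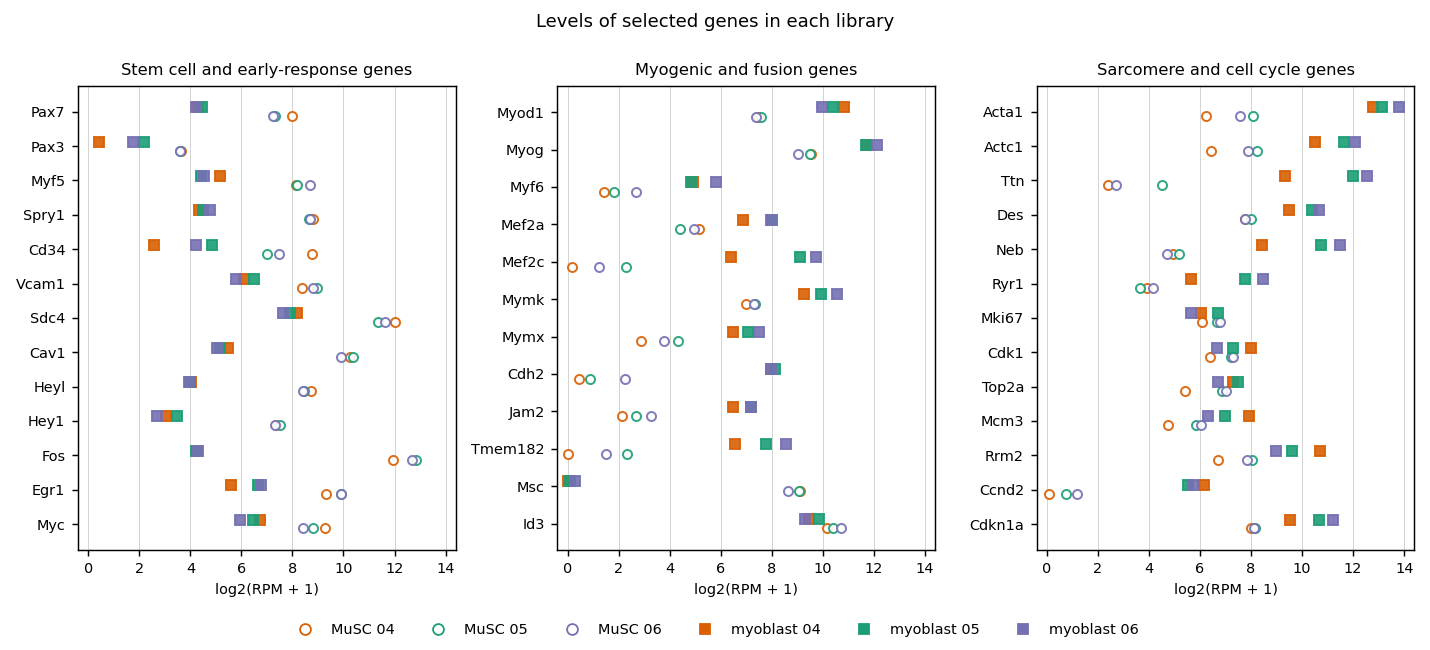
Level of selected genes in each of the 6 libraries, as log2(RPM + 1) on the horizontal axis. Open circles are MuSCs, filled squares are myoblasts, and the colour marks the replicate number, which is the mouse. Pax7, Myf5 and Fos sit lower in all 3 myoblast libraries, Myod1, Mef2c and Ttn sit higher, and the Mki67, Cdk1 and Top2a points of the 2 groups overlap.

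Genes of MuSC identity and quiescence were mostly lower in myoblasts: of 39 tested, 29 fell and 3 rose, with a median of -3.17 log2 units. The myogenic regulator Myf5 had 282, 292 and 414 RPM in MuSCs and 34.5, 20.5 and 22.4 RPM in myoblasts and fell by 3.64 ± 0.26 log2 units. Spry1, an inhibitor of Fgf receptor signalling that supports return to quiescence, had 441, 401 and 416 RPM in MuSCs and 19, 21.2 and 26 RPM in myoblasts and fell by 4.20 ± 0.19 log2 units. Both genes were separated in all libraries, with little spread among the myoblasts. The heparan sulphate proteoglycan Sdc4 fell by 3.77 ± 0.22 log2 units, the adhesion molecule Vcam1 by 2.59 ± 0.24 log2 units and the sialomucin Cd34 by 3.85 ± 0.60 log2 units. Cav1, which builds caveolae, fell by 4.97 ± 0.20 log2 units, from 1179.8 ± 194 RPM in MuSCs to 36.7 ± 5.77 RPM in myoblasts. The Pax7 paralogue Pax3 was low throughout and fell by 2.15 ± 0.46 log2 units, from 11.1 ± 0.19 RPM in MuSCs to 2.07 ± 1.61 RPM in myoblasts. The myogenic cadherin Cdh15 did not pass the test, at 203 ± 12.7 RPM in MuSCs and 160.0 ± 21.3 RPM in myoblasts. The 3 members that rose were the proteoglycan Sdc3, by 2.41 ± 0.36 log2 units, the Wnt receptor gene Fzd7, by 1.31 ± 0.38 log2 units, and myostatin (Mstn), a brake on muscle growth, by 4.73 ± 0.65 log2 units. The rise of Fzd7 missed the threshold without MuSC replicate 06 and without myoblast replicates 05 or 06, at 1.06, 1.13 and 1.22 log2 units.

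The Notch pathway, which represses myogenic differentiation in MuSCs, moved both ways: 10 of 23 tested genes fell and 6 rose. Among receptors, Notch1 fell by 1.62 ± 0.27 log2 units and Notch2 by 2.52 ± 0.26 log2 units. Among ligands, Jag1 had 92.1, 74.6 and 113 RPM in MuSCs and 3.63, 3.56 and 2.5 RPM in myoblasts and fell by 4.47 ± 0.28 log2 units, whereas Jag2 rose by 2.58 ± 0.40 log2 units, from 6.4 ± 3.43 RPM in MuSCs to 39.5 ± 1.15 RPM in myoblasts. The Notch targets Hey1 and Heyl fell by 4.32 ± 0.25 log2 units and by 4.54 ± 0.19 log2 units, and the target Hes1 did not pass the test, at 31.5 ± 26.3 RPM in MuSCs and 25.3 ± 20.2 RPM in myoblasts. Hes6, a Hes-family member that antagonizes Hes1, had 135, 121 and 118 RPM in MuSCs and 3112, 2280.2 and 2389.9 RPM in myoblasts and rose by 4.36 ± 0.18 log2 units. The non-canonical ligand Dner had 0, 0 and 0 RPM in MuSCs and 32.7, 44.6 and 37.9 RPM in myoblasts.

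Myogenic regulators and fusion genes were higher, apart from those of the stem cell. Of 26 tested, 18 rose and 4 fell. Myod1, the determination factor, had 177, 188 and 167 RPM in MuSCs and 1800.5, 1336 and 1000.0 RPM in myoblasts and rose by 2.91 ± 0.22 log2 units. Myog, the differentiation factor, had 732, 720.0 and 524 RPM in MuSCs and 3374, 3344 and 4521 RPM in myoblasts and rose by 2.51 ± 0.20 log2 units. Myog was thus already measured in freshly isolated MuSC libraries, at a level below that of every myoblast library. Mef2c, a partner of these factors at contractile genes, had 0.11, 3.88 and 1.35 RPM in MuSCs and 82.7, 550.0 and 846 RPM in myoblasts, and rose by 7.18 ± 0.83 log2 units. Myf6, the last factor of the family, rose by 3.21 ± 0.43 log2 units. The membrane proteins that drive fusion rose as well, Mymk by 2.70 ± 0.31 log2 units and Mymx by 3.34 ± 0.40 log2 units, and so did adhesion molecules of fusing cells, with Cdh2 up by 6.84 ± 0.43 log2 units, Jam2 by 4.27 ± 0.35 log2 units and Ncam1 by 1.88 ± 0.27 log2 units. Cav3, the muscle caveolin, rose by 6.40 ± 0.49 log2 units, from 1.65 ± 0.15 RPM in MuSCs to 266 ± 178 RPM in myoblasts. The change of Cav3 ran opposite to that of Cav1. Msc, a bHLH repressor of Myod1 activity, went the other way, with 547, 538 and 398 RPM in MuSCs and 0, 0.052 and 0.22 RPM in myoblasts. It was the only transcription factor at 20 RPM or more in all MuSC libraries and under 0.5 RPM in all myoblast libraries.

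Sarcomere and excitation-contraction genes made the most one-sided group of the pathway lists: 45 of 54 tested rose and 0 fell, with a median of 5.13 log2 units. Their summed level was 1420.3, 1779.7 and 1324 RPM in MuSCs and 22591, 43027 and 68775 RPM in myoblasts. Myoblast replicate 04 had the lowest sum of the 3 myoblast libraries, and without it 46 rose. Skeletal alpha-actin, Acta1, had 74, 270.0 and 187 RPM in MuSCs and 7018, 9067 and 14266 RPM in myoblasts and rose by 5.95 ± 0.45 log2 units, and cardiac actin, Actc1, rose by 3.91 ± 0.50 log2 units. The giant protein Ttn, which spans the sarcomere from its border to its centre, had 4.27, 21.6 and 5.55 RPM in MuSCs and 648, 4026 and 6036 RPM in myoblasts and rose by 8.09 ± 0.81 log2 units. The myosin light chain gene Myl1 rose by 7.02 ± 0.40 log2 units, the myosin-binding protein gene Mybph by 8.15 ± 0.54 log2 units and the fast troponin T gene Tnnt3 by 6.36 ± 0.39 log2 units. The intermediate filament gene Des, expressed by MuSCs too, rose less, by 2.34 ± 0.29 log2 units, from 227 ± 22.8 RPM in MuSCs to 1217 ± 459 RPM in myoblasts. The calcium channel of the transverse tubule, Cacna1s, had 0.13, 0.071 and 0.071 RPM in MuSCs and 33.7, 112 and 169 RPM in myoblasts. Not every isoform rose: the adult fast myosin genes Myh4 and Myh2 did not pass the test, at 3.25 ± 2.79 RPM in MuSCs and 1.13 ± 1.21 RPM in myoblasts and 3.21 ± 0.39 RPM in MuSCs and 4.99 ± 4.92 RPM in myoblasts, while Myh1 rose by 5.47 ± 0.82 log2 units. The creatine kinase gene Ckm, abundant in mature fibres, rose by 2.54 ± 0.55 log2 units and reached 74.9 ± 49.8 RPM.

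Promoters of these genes were searched for short motifs, in RefSeq windows of 300 bases (250 before and 50 after the start of the gene, GRCm38.p6), which matched 11319 of the 15332 symbols tested. The E-box CAGCTG, a sequence that Myod1 and Myog are known to bind, was present on either strand (it reads the same on both) in 17 of 41 sarcomere promoters (41.5%) and in 18.2% of all matched promoters. CATTCC, the core of the element bound by Tead factors, was present on either strand in 14 of the 41 (34.1%), against 14.6% of all. The CArG box, the site of serum response factor, was present in 6 of the 41 (14.6%), against 1.63% of all, and in 10 of 63 actin and cytoskeleton promoters (15.9%). Promoters are counted here and below by gene, with a match where any window of the gene held the motif. None of these 3 motifs contains another, and a match is a description of sequence, not of binding. The 250 bases before the start are shown for 3 sarcomere genes that rose and hold CAGCTG there, in capitals, 5′ to 3′ on the strand of the gene.
Tnni1, slow skeletal troponin I, chr1:135799171-135799420, plus strand: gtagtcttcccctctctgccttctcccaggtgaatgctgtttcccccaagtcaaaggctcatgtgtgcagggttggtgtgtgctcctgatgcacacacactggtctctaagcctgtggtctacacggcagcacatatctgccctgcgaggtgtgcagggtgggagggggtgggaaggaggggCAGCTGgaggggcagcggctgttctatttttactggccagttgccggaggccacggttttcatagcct
Mybph, chr1:134193198-134193447, plus strand: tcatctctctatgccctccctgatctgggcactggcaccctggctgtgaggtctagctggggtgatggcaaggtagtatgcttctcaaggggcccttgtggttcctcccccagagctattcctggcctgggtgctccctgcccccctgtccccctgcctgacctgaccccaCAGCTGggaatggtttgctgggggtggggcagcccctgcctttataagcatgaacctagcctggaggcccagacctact
Myl1, chr1:66945057-66945306, minus strand: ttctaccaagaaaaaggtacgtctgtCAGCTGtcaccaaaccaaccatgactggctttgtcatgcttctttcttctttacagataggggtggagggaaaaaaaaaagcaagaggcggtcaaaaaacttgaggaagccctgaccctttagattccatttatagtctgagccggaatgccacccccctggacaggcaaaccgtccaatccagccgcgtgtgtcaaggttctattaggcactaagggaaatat

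The postsynaptic and dystrophin-complex genes also rose more often than they fell, 12 against 2 of 24. The fetal acetylcholine receptor subunit Chrng had 13.9, 11.5 and 5.32 RPM in MuSCs and 596, 509 and 686 RPM in myoblasts and rose by 5.81 ± 0.32 log2 units, and the subunits Chrnd and Chrna1 rose by 4.30 ± 0.19 log2 units and 2.73 ± 0.16 log2 units. The receptor kinase gene Musk, needed to cluster the receptor, did not pass the test, at 136 ± 36.1 RPM in MuSCs and 165 ± 35.9 RPM in myoblasts. In the sarcoglycan complex, Sgce fell by 2.94 ± 0.25 log2 units. Dag1, the laminin receptor of the complex, fell by 1.59 ± 0.29 log2 units, from 445 ± 41.4 RPM in MuSCs to 156 ± 57.2 RPM in myoblasts. Without myoblast replicates 04 or 06, 4 genes of the list fell, as many as with the mouse as a replicate block.

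**Figure D2:**
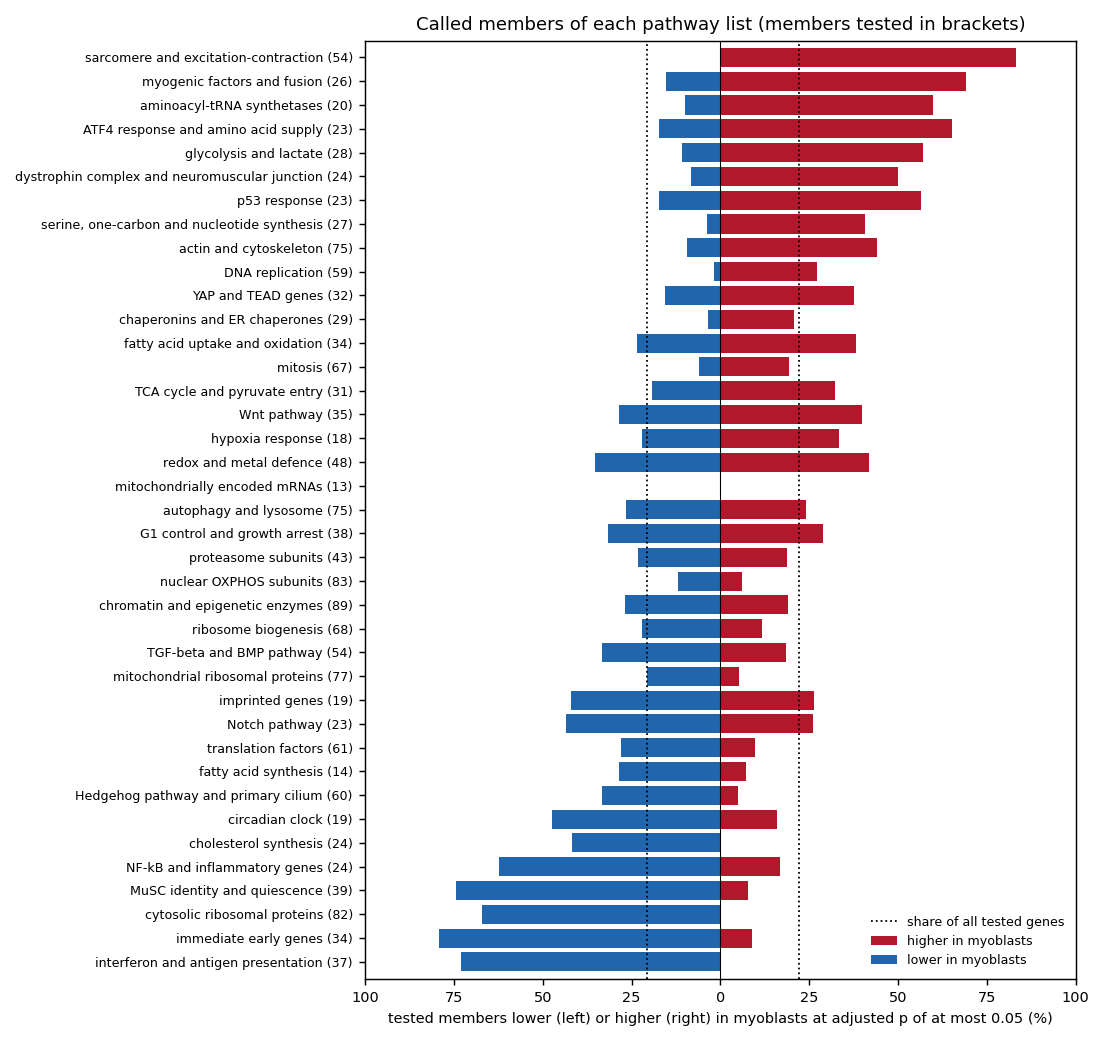
Share of the tested members of each pathway list that were lower (left) or higher (right) in myoblasts at an adjusted p of at most 0.05, with the number tested in brackets. Dotted lines mark the shares of all tested genes, 20.6% lower and 22.2% higher. Sarcomere genes lie at the top, with 83.3% higher, and interferon and antigen presentation genes at the bottom, with 73% lower.

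Most genes of the cell cycle lists were not called. Of 59 DNA replication genes, 16 rose and 1 fell, and of 67 mitosis genes, 13 rose and 4 fell. The risen shares were 27.1% and 19.4%, against 22.2% of all genes, and the fallen shares 1.69% and 5.97%, against 20.6%. Differences were positive for 43 and 52 of the tested genes, with medians of 0.40 and 0.49 log2 units. Without myoblast replicate 04, the medians were 0.16 and 0.38 log2 units. Rrm2, a ribonucleotide reductase subunit, had 102, 262 and 227 RPM in MuSCs and 1642, 779.8 and 501 RPM in myoblasts and rose by 2.23 ± 0.46 log2 units. The helicase subunit Mcm3 rose by 1.55 ± 0.45 log2 units, the DNA methylation cofactor Uhrf1 by 2.41 ± 0.49 log2 units and the mitotic kinase Plk1 by 3.22 ± 0.64 log2 units. The proliferation marker Mki67 had 66.5, 99.2 and 110.2 RPM in MuSCs and 64.6, 102 and 49.2 RPM in myoblasts. Its groups overlapped, and the difference of -0.38 ± 0.30 log2 units did not pass the test. The same held for the mitotic kinase Cdk1, the topoisomerase Top2a and the sliding clamp Pcna, with differences of 0.35 ± 0.36 log2 units, 0.73 ± 0.42 log2 units and -0.15 ± 0.36 log2 units. Without myoblast replicate 04, Pcna fell by 0.62 log2 units (limma adjusted p = 0.020). The rise of Mcm3 missed the threshold without MuSC replicate 04 and without myoblast replicates 04 or 05, at 1.14, 1.13 and 1.59 log2 units. The libraries differed within groups: the summed mitosis level was 2134, 4563 and 4409 RPM in MuSCs and 5576, 5178 and 2918 RPM in myoblasts, lowest in MuSC replicate 04 and myoblast replicate 06, and the summed DNA replication level was 2538, 3661 and 3481 RPM in MuSCs and 8125, 4521 and 3282 RPM in myoblasts, highest in myoblast replicate 04. Without myoblast replicate 04, 11 DNA replication genes rose and 6 fell, and without myoblast replicate 05 the risen ones numbered 9. The single fallen gene was not called without MuSC replicates 05 or 06, without myoblast replicates 05 or 06, with the block or with each library scaled to its own total. Without myoblast replicate 05, 8 mitosis genes rose. The letters TTTGAA, the core of an element of mitotic promoters, stood on either strand in 39 of 56 mitosis promoters (69.6%) and in 15.3% of all.

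Regulators of the first gap phase moved both ways, 11 rising and 12 falling of 38. Among cyclins, Ccnd2 had 0.048, 0.67 and 1.24 RPM in MuSCs and 70.6, 44.7 and 51.9 RPM in myoblasts and rose by 5.14 ± 0.37 log2 units, and Ccnd3 rose by 1.67 ± 0.19 log2 units, while Ccnd1 did not pass the test, at 137 ± 51.1 RPM in MuSCs and 167 ± 46.4 RPM in myoblasts. Among inhibitors of cyclin-dependent kinases, Cdkn1a had 255, 286 and 274 RPM in MuSCs and 740.2, 1612 and 2371 RPM in myoblasts and rose by 2.38 ± 0.36 log2 units, and Cdkn2b rose by 4.01 ± 0.49 log2 units. The inhibitors Cdkn1c and Cdkn1b, linked to quiescence, fell by 3.24 ± 0.56 log2 units and by 1.96 ± 0.42 log2 units. The antiproliferative genes Btg1 and Btg2 fell by 3.92 ± 0.42 log2 units and by 4.45 ± 0.17 log2 units. E2f8, a repressor of the E2f family, rose by 3.48 ± 0.33 log2 units, from 2.89 ± 0.92 RPM in MuSCs to 42.5 ± 11.5 RPM in myoblasts. Genes of the p53 response rose in 13 of 23 cases and fell in 4. The BH3-only gene Pmaip1 rose by 4.83 ± 0.37 log2 units, and the atypical cyclin Ccng1 had 21.8, 22.8 and 30.3 RPM in MuSCs and 283, 398 and 267 RPM in myoblasts and rose by 3.60 ± 0.23 log2 units. Sesn1 and the death receptor gene Fas fell by 3.05 ± 0.20 log2 units and by 3.02 ± 0.31 log2 units, and Trp53 itself did not pass the test, at 139.8 ± 6.77 RPM in MuSCs and 122 ± 19.1 RPM in myoblasts.

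Immediate early genes, which respond to stimuli without new protein synthesis, were far lower in myoblasts: 27 of 34 fell and 3 rose, with a median of -2.90 log2 units. Fos had 3944, 7348 and 6632 RPM in MuSCs and 18.2, 17.4 and 18.8 RPM in myoblasts and fell by 8.24 ± 0.24 log2 units, and Fosb fell by 8.17 ± 0.23 log2 units. The nuclear receptor gene Nr4a1 fell by 5.89 ± 0.27 log2 units, the phosphatase gene Dusp1 by 3.95 ± 0.28 log2 units, the zinc finger gene Egr1 by 3.37 ± 0.32 log2 units and Myc by 2.45 ± 0.28 log2 units. Jun had 206, 481 and 496 RPM in MuSCs and 155, 249.7 and 239.8 RPM in myoblasts, and its groups overlapped. The difference of Jun, -0.80 ± 0.35 log2 units, did not pass the test. With the mouse as a replicate block, Jun fell by 0.80 log2 units (limma adjusted p = 0.020), and without MuSC replicate 04, its lowest MuSC library, it fell by 1.21 log2 units (limma adjusted p = 0.0082). The exceptions within the same families were Fosl1, with 6.15, 4.34 and 2.6 RPM in MuSCs and 78.8, 52.1 and 38 RPM in myoblasts and a rise of 3.41 ± 0.37 log2 units, Nr4a2, with a rise of 3.24 ± 0.61 log2 units, and Arc, with a rise of 3.64 ± 0.39 log2 units. The summed level of the list was 15459, 21484 and 19814 RPM in MuSCs and 1263, 1472 and 1486 RPM in myoblasts. The part of dissociation and sorting in the level of fresh MuSCs was not tested.

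Genes of the NF-kB and inflammatory list, which holds NF-kB subunits too, fell in 15 of 24 cases and rose in 4. The chemokine Cxcl1 had 60.7, 165 and 191 RPM in MuSCs and 0.048, 0.013 and 0.077 RPM in myoblasts and fell by 6.91 ± 0.44 log2 units, and Ccl2 fell by 4.63 ± 0.30 log2 units. The inhibitor Nfkbia, itself a target, had 655, 839 and 596 RPM in MuSCs and 29.9, 46.3 and 48.1 RPM in myoblasts and fell by 4.05 ± 0.24 log2 units. The subunit gene Rela did not pass the test, at 47.1 ± 10.4 RPM in MuSCs and 55.1 ± 16 RPM in myoblasts. Ptgs2, a cyclooxygenase, had 0, 0 and 0 RPM in MuSCs and 8.4, 10.9 and 12.2 RPM in myoblasts. A site for NF-kB was found on either strand in 10 of 19 promoters of the list (52.6%) and in 5.99% of all.

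No gene of interferon response and antigen presentation rose, and 27 of 37 fell, with a median of -2.28 log2 units. Irf1, a transcription factor of this response, had 376, 526 and 348 RPM in MuSCs and 17, 7.04 and 6.8 RPM in myoblasts and fell by 5.30 ± 0.34 log2 units. The class I heavy chain H2-D1 had 631, 717 and 593 RPM in MuSCs and 54.8, 52.8 and 35 RPM in myoblasts and fell by 3.76 ± 0.22 log2 units, and H2-K1 fell by 3.84 ± 0.22 log2 units. B2m, their light chain, fell less, by 1.57 ± 0.29 log2 units, from 154 ± 46.1 RPM in MuSCs to 51.1 ± 15.2 RPM in myoblasts. The immunoproteasome subunit Psmb8 had 46.4, 63.7 and 82.3 RPM in MuSCs and 2.45, 1.08 and 0.41 RPM in myoblasts and fell by 4.88 ± 0.40 log2 units, and Psmb9 fell by 3.78 ± 0.38 log2 units. Psmb5, the constitutive counterpart of Psmb8, rose by 0.96 ± 0.18 log2 units, and Psmb6, that of Psmb9, fell by 0.82 ± 0.19 log2 units. The proteasome activator subunits Psme1 and Psme2, induced by interferon, fell by 1.66 ± 0.30 log2 units and by 1.90 ± 0.21 log2 units, and the nuclear activator Psme3 rose by 1.00 ± 0.19 log2 units. Haematopoietic markers were at or near 0 in both groups, at sums of 3.49 to 7.98 RPM.

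The core of the interferon-stimulated response element, which is GAAA repeated after any 2 bases, stood on either strand in 15 of 29 promoters of this list (51.7%) and in 3.69% of all. It is in capitals in the 250 bases before the start of 3 genes that fell and hold it there, all GTPases of the interferon response. Gbp7 had 25.6, 45.3 and 64.2 RPM in MuSCs and 0.29, 0.12 and 0.6 RPM in myoblasts, Gbp3 had 16.9, 22.8 and 16.5 RPM in MuSCs and 0.36, 0.69 and 0.028 RPM in myoblasts and Irgm1 had 161, 163 and 111 RPM in MuSCs and 12.4, 7.75 and 9.06 RPM in myoblasts.
Gbp7, chr3:142530086-142530335, plus strand: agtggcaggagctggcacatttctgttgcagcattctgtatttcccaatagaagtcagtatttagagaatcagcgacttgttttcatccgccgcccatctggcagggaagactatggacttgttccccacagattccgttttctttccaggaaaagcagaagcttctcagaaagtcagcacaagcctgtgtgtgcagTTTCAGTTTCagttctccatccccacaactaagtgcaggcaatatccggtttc
Gbp3, chr3:142559794-142560043, plus strand: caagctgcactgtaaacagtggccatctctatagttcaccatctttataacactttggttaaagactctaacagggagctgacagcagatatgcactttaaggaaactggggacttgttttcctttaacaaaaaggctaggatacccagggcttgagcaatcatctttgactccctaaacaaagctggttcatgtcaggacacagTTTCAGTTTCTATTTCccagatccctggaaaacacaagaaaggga
Irgm1, chr11:48871421-48871670, minus strand: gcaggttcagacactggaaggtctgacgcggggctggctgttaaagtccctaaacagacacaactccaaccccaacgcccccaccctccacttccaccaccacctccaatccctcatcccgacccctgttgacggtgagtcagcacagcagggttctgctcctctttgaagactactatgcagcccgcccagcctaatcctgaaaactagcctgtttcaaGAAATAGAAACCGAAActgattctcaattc

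**Figure D3:**
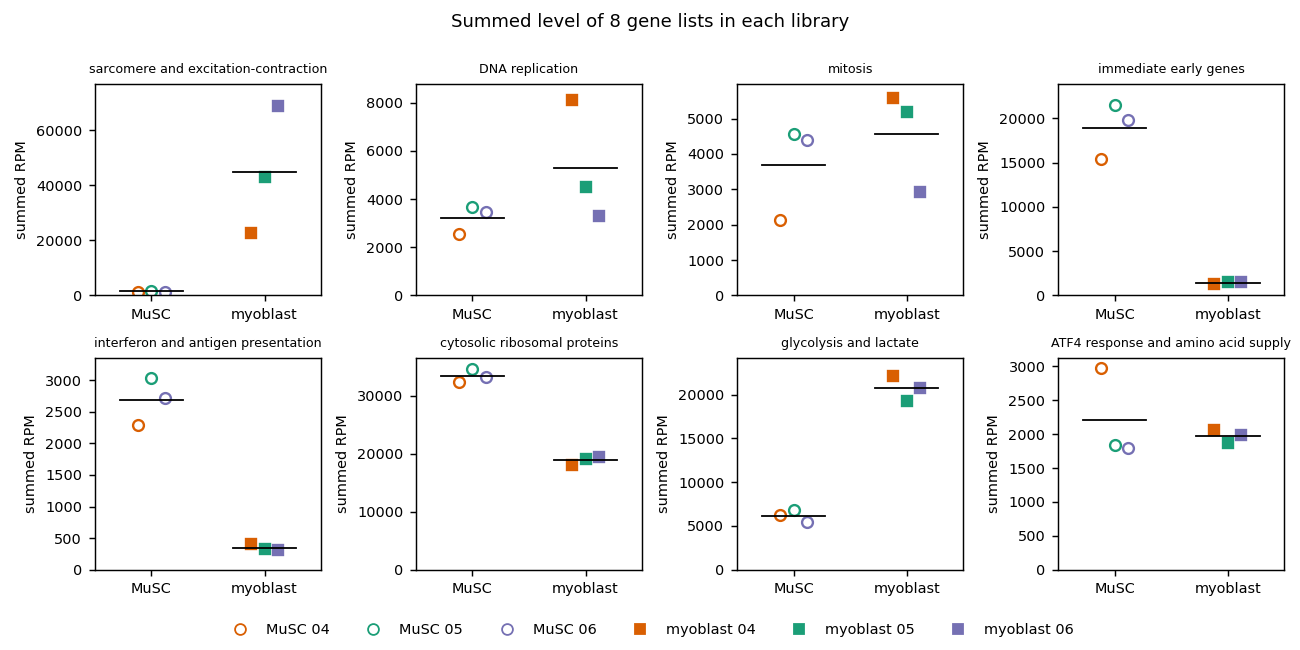
Summed RPM of the members of 8 gene lists in each library, with the group mean as a black line. Open circles are MuSCs and filled squares myoblasts, coloured by replicate number. The groups are separated for sarcomere, immediate early, interferon, ribosomal protein and glycolysis genes, while the points of the groups overlap in range for DNA replication, mitosis and the ATF4 response.

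Genes of the Atf4 response and amino acid supply mostly rose, 15 of 23 against 4 that fell. Atf4 itself, the transcription factor of the amino acid response, did not pass the test, at 118 ± 16.3 RPM in MuSCs and 102 ± 10.1 RPM in myoblasts. Asns, asparagine synthetase, had 0.92, 0 and 3.98 RPM in MuSCs and 360.0, 421 and 514 RPM in myoblasts and rose by 7.66 ± 0.51 log2 units. Chac1, which degrades glutathione, had 1.13, 1.58 and 1.69 RPM in MuSCs and 32.7, 28 and 34 RPM in myoblasts and rose by 3.73 ± 0.29 log2 units. Pycr1, an enzyme of proline synthesis, had 7.56, 4.49 and 5.29 RPM in MuSCs and 59.4, 41.2 and 44.5 RPM in myoblasts and rose by 2.87 ± 0.29 log2 units. The groups were separated for all 3 genes. The large neutral amino acid transporter gene Slc7a5 rose by 3.14 ± 0.44 log2 units, and the stress regulator Sesn2 by 3.35 ± 0.64 log2 units. The members that fell included Slc38a2, a glutamine transporter, by 3.03 ± 0.30 log2 units, and Ddit3, a factor of the stress response, by 1.3 ± 0.27 log2 units. Slc38a2 was high in MuSCs, at 1437 ± 659.6 RPM in MuSCs and 166 ± 30.5 RPM in myoblasts, and the summed level of the list was not separated between the groups, 2983, 1835 and 1799 RPM in MuSCs and 2062, 1866 and 1982 RPM in myoblasts. The aminoacyl-tRNA synthetase genes rose in 12 of 20 cases and fell in 2, in 0 or 1 without MuSC replicates 04 or 05, without myoblast replicates 05 or 06 or with each library scaled to its own total, with Aars up by 2.53 ± 0.17 log2 units and Gars by 2.11 ± 0.19 log2 units. In serine, one-carbon and nucleotide synthesis, 11 of 27 rose and 1 fell, 3 without myoblast replicate 04 and 0 without MuSC replicate 04 or myoblast replicates 05 or 06, with the mitochondrial folate enzyme Mthfd2 up by 3.12 ± 0.46 log2 units and the entry enzyme Phgdh up by 2.13 ± 0.16 log2 units.

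The letters TGATGNAA, the form of the element that Atf4 binds with a Cebp partner, stood on either strand in 7 of 19 promoters of the Atf4 list (36.8%), in 5 of 13 tRNA synthetase promoters (38.5%) and in 2.96% of all. They are in capitals in the 250 bases before the start of 3 genes of the list that rose and hold them there.
Asns, chr6:7693210-7693459, minus strand: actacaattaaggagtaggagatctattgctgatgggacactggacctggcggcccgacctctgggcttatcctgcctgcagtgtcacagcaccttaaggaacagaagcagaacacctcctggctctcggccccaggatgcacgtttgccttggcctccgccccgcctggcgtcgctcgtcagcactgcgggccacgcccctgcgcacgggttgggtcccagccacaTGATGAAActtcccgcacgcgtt
Chac1, chr2:119350992-119351241, plus strand: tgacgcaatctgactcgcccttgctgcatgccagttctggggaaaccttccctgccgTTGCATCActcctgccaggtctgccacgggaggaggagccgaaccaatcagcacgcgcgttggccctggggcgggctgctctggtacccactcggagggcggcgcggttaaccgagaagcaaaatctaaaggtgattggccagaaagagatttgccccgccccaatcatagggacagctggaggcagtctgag
Pycr1, chr11:120643749-120643998, minus strand: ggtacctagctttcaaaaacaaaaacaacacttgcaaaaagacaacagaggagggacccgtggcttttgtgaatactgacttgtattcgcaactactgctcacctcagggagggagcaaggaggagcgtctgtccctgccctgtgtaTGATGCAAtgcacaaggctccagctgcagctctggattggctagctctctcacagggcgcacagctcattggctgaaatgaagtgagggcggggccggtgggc

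Genes of the cytosolic ribosome itself were lower. Of 82 cytosolic ribosomal protein genes, 55 fell and 0 rose, with a median of -0.67 log2 units. Their summed level was 32391, 34499 and 33193 RPM in MuSCs and 18045, 19117 and 19333 RPM in myoblasts, so the groups were well apart and the spread within each was small. Rps25 fell by 1.69 ± 0.26 log2 units and Rpl4 by 0.96 ± 0.20 log2 units, and the elongation factor gene Eef1a1 had 6133, 3920.2 and 2898 RPM in MuSCs and 1681, 1924 and 1965 RPM in myoblasts and fell by 1.15 ± 0.26 log2 units. Several of these genes have many near-identical pseudogene copies, and reads could be split between copies. From 32 to 36 ribosomal protein genes fell without MuSC replicates 05 or 06 or myoblast replicate 05, and with each library scaled to its own total, 40 fell. Genes that assemble the ribosome fell in 15 of 68 cases and rose in 8, shares of 22.1% and 11.8% against 20.6% and 22.2% of all genes. From 5 to 8 of them fell without MuSC replicates 04 or 05, without myoblast replicates 05 or 06, or with each library scaled to its own total. Rrp12, which exports ribosomal subunits from the nucleus, rose by 3.10 ± 0.36 log2 units. Mitochondrial ribosomal proteins fell in 16 of 77 cases and rose in 4. The fallen share, 20.8%, was near the 20.6% of all genes. The fallen ones numbered 5 to 7 without MuSC replicates 05 or 06 or myoblast replicates 05 or 06, 25 without myoblast replicate 04, and 10 with each library scaled to its own total. Among translation factors, 17 of 61 fell, 9 to 11 without MuSC replicates 04 or 06 or myoblast replicate 05, and 6 rose, 3 without MuSC replicate 06 and 11 with each library scaled to its own total. The scaffold Eif4g1 rose by 1.2 ± 0.22 log2 units and Eif4g3 fell by 1.52 ± 0.32 log2 units.

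Glycolytic genes rose in 16 of 28 cases and fell in 3, and their summed level was 6282, 6797 and 5431 RPM in MuSCs and 22191, 19226 and 20742 RPM in myoblasts. Pkm, pyruvate kinase, had 836, 889.6 and 679 RPM in MuSCs and 4192, 3914 and 3363 RPM in myoblasts and rose by 2.26 ± 0.18 log2 units, and lactate dehydrogenase A, Ldha, rose by 1.87 ± 0.16 log2 units. Muscle isoforms of the enzymes rose, with Eno3 up by 6.76 ± 0.35 log2 units, Pgam2 by 7.0 ± 0.41 log2 units and the phosphofructokinase Pfkm by 3.85 ± 0.48 log2 units. Pfkp, the platelet phosphofructokinase, fell by 1.78 ± 0.22 log2 units, from 198 ± 42.7 RPM in MuSCs to 56.4 ± 7.75 RPM in myoblasts. Pfkfb3, which makes an activator of phosphofructokinase, fell by 2.43 ± 0.41 log2 units. The lactate exporter Slc16a3 rose by 4.5 ± 0.33 log2 units.

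Calls among mitochondrial energy genes showed no common direction. Of 83 nuclear genes of oxidative phosphorylation, 25 had a positive difference, and the median was -0.25 log2 units, or -0.11 with each library scaled to its own total. Of these 83 genes, 5 rose and 10 fell, shares below those of all genes. The risen ones numbered 3 without any 1 of the 6 libraries, the fallen ones 3 or 4 without MuSC replicates 05 or 06 or myoblast replicate 05, 20 without myoblast replicate 04 and 21 without MuSC replicate 04, and with each library scaled to its own total 13 rose and 5 fell. The exception in size was Cox6a2, the muscle isoform of a cytochrome oxidase subunit, with 0.49, 1.29 and 1.69 RPM in MuSCs and 90.7, 83.1 and 188 RPM in myoblasts and a rise of 5.76 ± 0.39 log2 units. None of the 13 mitochondrially encoded mRNAs passed the test with limma, and 1 fell without MuSC replicate 04. Their median was -0.18 log2 units, and 2 of the 13 had a positive difference. At the entry of pyruvate into the mitochondrion, the kinase gene Pdk1 rose by 2.60 ± 0.45 log2 units, Pdk4 fell by 1.2 ± 0.30 log2 units and the carrier subunit gene Mpc1 fell by 1.39 ± 0.19 log2 units. Of the TCA cycle list, 10 of 31 rose and 6 fell, the last number being 2 or 3 without MuSC replicates 04 or 05 or myoblast replicate 05 and 11 without myoblast replicate 04. In fatty acid oxidation, 13 of 34 rose and 8 fell, and among them the binding protein Fabp3 rose by 5.10 ± 0.29 log2 units and the dehydrogenase Acadm fell by 1.61 ± 0.22 log2 units. Cholesterol synthesis genes fell in 10 of 24 cases and rose in none, with limma, although 1 rose without myoblast replicate 04 or with each library scaled to its own total. Hmgcs1, which starts the pathway, had 161, 368 and 428 RPM in MuSCs and 43.4, 57.7 and 63.6 RPM in myoblasts and fell by 2.42 ± 0.35 log2 units. The fallen cholesterol genes numbered 3 to 6 without MuSC replicates 05 or 06 or myoblast replicate 05, and 16 without MuSC replicate 04, the MuSC library with the lowest summed level, 846, 2081 and 2276 RPM in MuSCs and 744, 811 and 787 RPM in myoblasts.

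Redox genes moved both ways, 20 up and 17 down of 48. Gclm and Nqo1, targets of the antioxidant factor Nfe2l2, rose by 4.14 ± 0.75 log2 units and 4.07 ± 0.39 log2 units. Gpx3, a secreted peroxidase, had 6785, 6377 and 5978 RPM in MuSCs and 341, 242 and 185 RPM in myoblasts and fell by 4.68 ± 0.23 log2 units. The metallothioneins Mt1 and Mt2, which bind zinc and copper, fell by 4.11 ± 0.38 log2 units and by 5.01 ± 0.37 log2 units, and the glutathione transferase gene Gstt1 fell by 7.24 ± 0.36 log2 units. Of lysosome and autophagy genes, 18 of 75 rose and 20 fell, 24% and 26.7% against 22.2% and 20.6% of all genes. The fallen ones numbered 13 without MuSC replicate 05 or myoblast replicate 06. The cathepsin Ctsd rose by 2.57 ± 0.19 log2 units while the cathepsin Ctsz fell by 1.79 ± 0.16 log2 units.

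Actin and cytoskeleton genes rose in 33 of 75 cases and fell in 7. Beta-tropomyosin, Tpm2, had 27.9, 47.8 and 28.6 RPM in MuSCs and 859.8, 1279 and 1994 RPM in myoblasts and rose by 5.23 ± 0.33 log2 units, the muscle LIM protein gene Csrp3 rose by 7.12 ± 0.43 log2 units and the intermediate filament gene Nes by 3.58 ± 0.32 log2 units. Tagln, an actin-binding protein of smooth muscle, fell by 3.67 ± 0.45 log2 units, from 261 ± 137 RPM in MuSCs to 17.6 ± 5.37 RPM in myoblasts. Among genes of the YAP and TEAD pathway, 12 of 32 rose and 5 fell. Ankrd1, a target of it, had 252, 200.3 and 218 RPM in MuSCs and 2650.2, 1289 and 1337 RPM in myoblasts and rose by 2.89 ± 0.28 log2 units, the target Ccn1 fell by 1.56 ± 0.32 log2 units, and the target Ccn2 did not pass the test, at 6.63 ± 2.18 RPM in MuSCs and 15.2 ± 8.51 RPM in myoblasts. Without myoblast replicate 04, Ccn2 rose by 1.51 log2 units (limma adjusted p = 0.0091). Tead4 rose by 3.42 ± 0.39 log2 units and Tead1 fell by 1.45 ± 0.32 log2 units.

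In the TGF-beta and BMP pathway, 18 of 54 genes fell and 10 rose. The ligand Bmp4 had 581, 536 and 357 RPM in MuSCs and 0.22, 0.13 and 0.85 RPM in myoblasts and fell by 8.46 ± 0.30 log2 units, and Bmp6 fell by 4.99 ± 0.32 log2 units. Of the BMP targets, Id1 rose by 1.89 ± 0.32 log2 units and Id3 fell by 0.88 ± 0.21 log2 units. Mstn and its antagonist Fst, which binds it, both rose, by 4.73 ± 0.65 log2 units and 4.26 ± 0.68 log2 units. In the Wnt pathway, 14 of 35 rose and 10 fell, 6 without myoblast replicate 06. The receptor gene Fzd4 fell by 3.11 ± 0.22 log2 units and Fzd2 rose by 3.80 ± 0.37 log2 units. The transcription factor Lef1 had 0.57, 0.98 and 0.48 RPM in MuSCs and 33.9, 24.3 and 20.7 RPM in myoblasts and rose by 4.01 ± 0.33 log2 units, while the target Axin2 stayed under 1 RPM on average in both groups. Hedgehog and cilium genes fell in 20 of 60 cases and rose in 3, 6 with each library scaled to its own total. The receptor gene Ptch1 fell by 2.29 ± 0.45 log2 units and the cilium transport gene Ift88 by 1.99 ± 0.32 log2 units.

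Clock genes fell in 9 of 19 cases. Per1 fell by 3.45 ± 0.41 log2 units, Dbp by 2.39 ± 0.33 log2 units and Bhlhe40, which is also an early-response gene, had 388, 419.9 and 296 RPM in MuSCs and 1.41, 4.7 and 11.1 RPM in myoblasts and fell by 6.05 ± 0.50 log2 units. The time of day at collection was not given in the sources used here. The 3 clock genes that rose were 1 with the mouse as a replicate block and 1 without MuSC replicate 05 or myoblast replicate 05. Of hypoxia genes, 6 of 18 rose and 4 fell, 33.3% and 22.2% against 22.2% and 20.6% of all genes. The oxygen sensor Egln3 rose by 5.83 ± 0.28 log2 units while Ndrg1 fell by 3.44 ± 0.42 log2 units. Vegfa, the growth factor of vessels, did not pass the test, at 53.3 ± 15 RPM in MuSCs and 52.6 ± 8.14 RPM in myoblasts. Among chromatin genes, 17 of 89 rose and 24 fell, 15 without MuSC replicate 04 or myoblast replicate 05. Hmga1, an architectural protein of AT-rich DNA, had 1.67, 0.076 and 0.31 RPM in MuSCs and 333, 419 and 283 RPM in myoblasts and rose by 7.78 ± 0.37 log2 units, and its paralogue Hmga2 rose by 5.59 ± 0.46 log2 units. The DNA demethylases Tet1 and Tet2 fell by 2.84 ± 0.55 log2 units and by 2.66 ± 0.27 log2 units. The Polycomb methyltransferase Ezh2 did not pass the test, at 55.4 ± 6.05 RPM in MuSCs and 66.3 ± 11.4 RPM in myoblasts, while Ezh1 fell by 1.13 ± 0.24 log2 units. Of imprinted genes, 5 of 19 rose, and Igf2 had 72.9, 53.3 and 57.7 RPM in MuSCs and 181, 392 and 398 RPM in myoblasts and rose by 2.31 ± 0.31 log2 units. Of the same list, 8 fell, and the surface protein Dlk1 fell by 2.69 ± 0.59 log2 units and the G protein subunit Gnas fell by 1.46 ± 0.21 log2 units.

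Transcription factors were called slightly more often than genes in general and more often as lower: of 452 tested in 14 families, 82 rose and 136 fell, so 48.2% were called, against 42.8% of all genes. The bZIP family, which includes the Fos and Jun genes, had 21 lower and 8 higher of 46, with 4 or 5 higher with the mouse as a replicate block, without MuSC replicates 05 or 06 or without myoblast replicates 05 or 06. Besides those already given, Cebpd fell by 4.73 ± 0.28 log2 units and Creb5 by 4.15 ± 0.37 log2 units. The Kruppel-like family had 10 lower and 3 higher of 21, and Klf4 fell by 4.16 ± 0.40 log2 units. Klf5 had 5.25, 1.61 and 3.95 RPM in MuSCs and 66, 106 and 184 RPM in myoblasts and rose by 4.67 ± 0.44 log2 units. Of the Stat, Irf, Rel and Nfat genes, 12 of 25 fell and 2 rose, 1 without MuSC replicates 05 or 06 or myoblast replicate 05.

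Nuclear receptors fell in 12 of 34 cases and rose in 7. The oestrogen receptor gene Esr1 had 968, 545 and 603 RPM in MuSCs and 10.9, 19.2 and 18.9 RPM in myoblasts and fell by 5.34 ± 0.29 log2 units. The mineralocorticoid receptor gene Nr3c2 fell by 4.46 ± 0.33 log2 units. Rxrg, a retinoid receptor, rose by 3.69 ± 0.45 log2 units, from 2.15 ± 1.35 RPM in MuSCs to 39.4 ± 16.1 RPM in myoblasts. Among nuclear factor I genes, Nfib had 1470.0, 1064 and 1255 RPM in MuSCs and 30.7, 40.9 and 37.7 RPM in myoblasts. It fell by 5.07 ± 0.20 log2 units, Nfia by 4.07 ± 0.20 log2 units and Nfix, which acts in the fetal switch of myogenesis, by 1.86 ± 0.40 log2 units.

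In the bHLH family, 19 of 56 fell and 10 rose. Mycn fell by 4.78 ± 0.34 log2 units, from 39.5 ± 10.6 RPM in MuSCs to 0.46 ± 0.25 RPM in myoblasts, whereas its paralogue Mycl rose by 2.63 ± 0.40 log2 units. Scx, a factor of tendon cells, rose by 2.46 ± 0.52 log2 units, from 9.23 ± 0.61 RPM in MuSCs to 67.4 ± 42.7 RPM in myoblasts, while the tendon factor Mkx did not pass the test, at 1.86 ± 0.39 RPM in MuSCs and 2.43 ± 0.22 RPM in myoblasts. Of homeodomain genes, 12 of 61 rose and 15 fell, 19.7% and 24.6% against 22.2% and 20.6% of all genes. Of Hox genes, 4 of 22 rose and 6 fell, 18.2% and 27.3%. The risen Hox genes numbered 2 without any 1 of the MuSC libraries or without myoblast replicate 06. Hoxa11 rose by 3.28 ± 0.50 log2 units and Hoxc10 fell by 1.35 ± 0.27 log2 units. Dlx2, a homeodomain factor of brain and bone, had 0, 0 and 0 RPM in MuSCs and 32.9, 60.1 and 42.9 RPM in myoblasts, which made it the only transcription factor to be switched on, that is under 0.5 RPM in all libraries of one group and at 20 RPM or more in all of the other. Runx2 and Gata2, known from bone and blood, had 0.12, 0.5 and 0.025 RPM in MuSCs and 37.8, 52.6 and 38.4 RPM in myoblasts and 0, 0.51 and 0.72 RPM in MuSCs and 32.3, 53.7 and 37.3 RPM in myoblasts. They rose by 5.18 ± 0.32 log2 units and 4.90 ± 0.36 log2 units. Tox2 rose by 5.41 ± 0.37 log2 units. In the forkhead family, Foxo3, a regulator of quiescence, fell by 2.62 ± 0.31 log2 units, and Foxo1 did not pass the test, at 63 ± 20.9 RPM in MuSCs and 33.1 ± 18 RPM in myoblasts. In the MADS, Tead and Runx group, 7 of 18 rose and 2 fell, 1 without any 1 of the 6 libraries, with the block or with each library scaled to its own total, and myoblast replicate 04 lay below the other myoblasts, with a median of -0.86 log2 units.

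**Figure D4:**
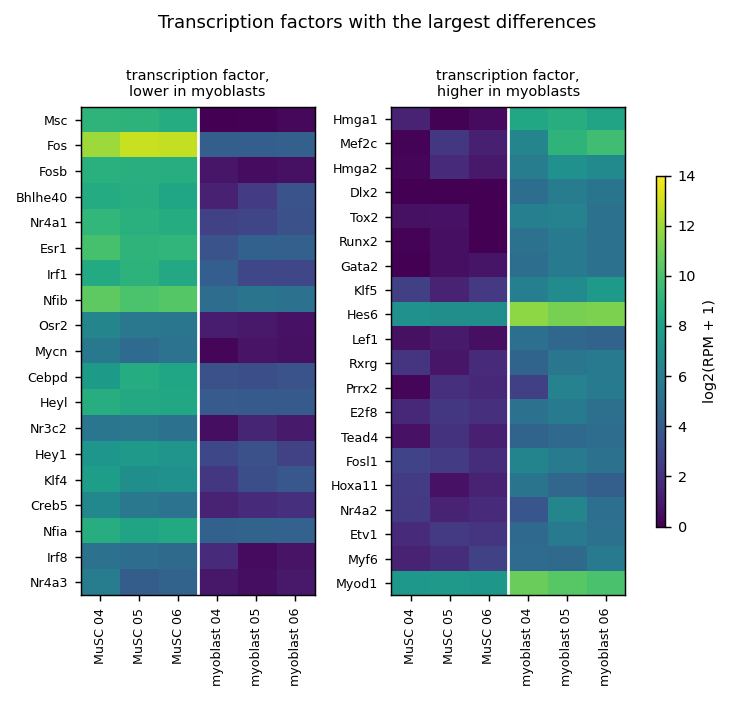
Level of the transcription factors with the largest decreases (left) and increases (right) in myoblasts among those reported here, as log2(RPM + 1), with a column for each library. Msc is dark in all 3 myoblast columns and Dlx2 in all 3 MuSC columns. Prrx2 and Mef2c are lower in myoblast replicate 04 than in the other myoblasts.

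Surface genes were called in 50.2% of 880 cases, 277 higher and 165 lower. Integrins, the receptors for matrix, rose in 10 of 23 cases and fell in 1. The laminin receptor subunits Itga3 and Itga6 had 4.72, 4.23 and 4.27 RPM in MuSCs and 35.3, 96 and 82.6 RPM in myoblasts, and 3.65, 4.42 and 2.54 RPM in MuSCs and 48.9, 55.7 and 54.5 RPM in myoblasts. They rose by 3.62 ± 0.38 log2 units and 3.59 ± 0.28 log2 units, the fibronectin receptor subunit Itga5 rose by 2.68 ± 0.37 log2 units, and Itga8 fell by 2.96 ± 0.54 log2 units. The common subunit gene Itgb1 did not pass the test, at 669 ± 59.2 RPM in MuSCs and 855 ± 74.7 RPM in myoblasts, but rose by 0.49 log2 units (limma adjusted p = 0.030) with each library scaled to its own total. Of cadherins and protocadherins, 19 of 73 rose and 7 fell, 12 rising without myoblast replicate 05. Clustered protocadherins share their 3′ exons, so their levels are uncertain. Cdh13, anchored by a lipid tail, fell by 1.96 ± 0.25 log2 units.

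Of receptor tyrosine kinases, 7 of 27 rose and 6 fell. These shares, 25.9% and 22.2%, were near the 22.2% and 20.6% of all genes. Fgfr1 and Fgfr4, receptors of the Fgf in the medium, fell by 1.91 ± 0.30 log2 units and by 2.40 ± 0.34 log2 units. Egfr fell by 3.45 ± 0.40 log2 units while Erbb3 had 0, 0.48 and 0.032 RPM in MuSCs and 22.2, 67.4 and 94.7 RPM in myoblasts and rose by 5.53 ± 0.52 log2 units, and Erbb2 rose by 2.94 ± 0.33 log2 units. Ror1, a receptor for Wnt5a, had 95.2, 59.2 and 69.3 RPM in MuSCs and 0.19, 0.42 and 1.13 RPM in myoblasts and fell by 5.60 ± 0.35 log2 units. Met, the receptor for hepatocyte growth factor, rose by 1.59 ± 0.30 log2 units, and Axl by 2.57 ± 0.28 log2 units. The Igf receptor gene Igf1r did not pass the test, at 59 ± 9.38 RPM in MuSCs and 61.2 ± 33.7 RPM in myoblasts. Tek, a member of the endothelial marker list, fell by 4.48 ± 0.35 log2 units, from 29.8 ± 4.68 RPM in MuSCs to 0.41 ± 0.46 RPM in myoblasts.

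Among cytokine and TNF receptors, 14 of 54 rose and 14 fell, 25.9% each against 22.2% and 20.6% of all genes. Il11ra1 fell by 3.79 ± 0.31 log2 units, and the Tweak receptor gene Tnfrsf12a rose by 1.22 ± 0.20 log2 units. Of G protein-coupled receptors, 40 of 121 rose and 27 fell. The sphingosine 1-phosphate receptor gene S1pr3 had 248, 193 and 179.8 RPM in MuSCs and 0.037, 1.78 and 1.54 RPM in myoblasts and fell by 6.73 ± 0.40 log2 units. The adenosine receptor gene Adora2b rose by 4.61 ± 0.59 log2 units. Guidance receptors rose in 15 of 49 cases and fell in 7, and the netrin receptor gene Unc5b rose by 4.5 ± 0.44 log2 units. Plxnd1, the receptor for Sema3e, fell by 3.26 ± 0.40 log2 units.

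CD antigens fell in 14 of 45 cases and rose in 10. Cd200, an inhibitory ligand, had 609.9, 487 and 656 RPM in MuSCs and 40.7, 40.9 and 34.9 RPM in myoblasts and fell by 3.87 ± 0.19 log2 units. Among tetraspanins, Cd9 and Cd82 fell by 1.98 ± 0.20 log2 units and by 2.01 ± 0.18 log2 units. Tspan13 rose by 4.24 ± 0.38 log2 units. Ion channel genes rose in 55 of 159 cases and fell in 23. The potassium channel subunit gene Kcnf1 had 0, 0 and 0 RPM in MuSCs and 111, 118 and 79.1 RPM in myoblasts, while Kcns3 fell by 4.58 ± 0.30 log2 units, from 27.2 ± 3.28 RPM in MuSCs to 0.18 ± 0.093 RPM in myoblasts. Solute carriers rose in 87 of 260 cases and fell in 45. The choline transporter-like gene Slc44a2 had 43.7, 77.5 and 62 RPM in MuSCs and 1039, 1184 and 945 RPM in myoblasts and rose by 4.12 ± 0.23 log2 units, the glucose transporter Slc2a1 rose by 2.38 ± 0.34 log2 units, the nucleobase transporter Slc43a3 fell by 4.44 ± 0.28 log2 units and the amino acid transporter Slc38a4 fell by 3.97 ± 0.47 log2 units.

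Secreted genes were the class called most often, in 61.8% of 403 cases, with 116 higher and 133 lower. Collagens fell in 15 of 33 cases and rose in 7, 4 without MuSC replicate 05. Col6a1, of the collagen VI that surrounds MuSCs, had 387, 355 and 317 RPM in MuSCs and 21.5, 4.8 and 5.13 RPM in myoblasts and fell by 5.25 ± 0.47 log2 units. The basement membrane chains Col4a1 and Col4a2 fell by 3.25 ± 0.19 log2 units and by 2.45 ± 0.21 log2 units, and the laminin chain Lamc1 by 3.54 ± 0.23 log2 units. Col18a1 went the other way and rose by 3.02 ± 0.29 log2 units, from 40.6 ± 7.46 RPM in MuSCs to 349.8 ± 138 RPM in myoblasts, and Col25a1, a transmembrane collagen of muscle, rose by 4.67 ± 0.56 log2 units. Nephronectin, Npnt, a ligand of integrins in basement membranes, had 0.77, 0 and 0 RPM in MuSCs and 96.8, 299.8 and 304 RPM in myoblasts and rose by 7.43 ± 0.48 log2 units. Matrix glycoproteins fell in 20 of 44 cases and rose in 11. Fibronectin, Fn1, had 12.3, 12.4 and 15.6 RPM in MuSCs and 91.8, 119.9 and 99.2 RPM in myoblasts and rose by 2.86 ± 0.23 log2 units, tenascin C, Tnc, rose by 4.52 ± 0.38 log2 units, and Sparc fell by 1.05 ± 0.17 log2 units. The leucine-rich proteoglycan Prelp fell by 7.22 ± 0.33 log2 units and Dcn by 3.88 ± 0.63 log2 units. Fibroblast markers among these genes fell in sum, as given above.

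Metalloproteinases had 12 higher and 14 lower of 47, and the gelatinase gene Mmp2 had 411, 229.9 and 209 RPM in MuSCs and 1.62, 3.4 and 8.3 RPM in myoblasts and fell by 5.84 ± 0.46 log2 units. Protease inhibitors and plasminogen genes had 14 higher and 10 lower of 35. The metalloproteinase inhibitor Timp1 had 1.06, 4.44 and 4.43 RPM in MuSCs and 94.9, 144 and 134 RPM in myoblasts and rose by 4.97 ± 0.41 log2 units, whereas Timp3 fell by 3.13 ± 0.41 log2 units. Serping1, the inhibitor of complement C1, had 1224, 886 and 804 RPM in MuSCs and 2.77, 1.21 and 3.81 RPM in myoblasts and fell by 8.13 ± 0.31 log2 units, and Serpinf1, which restrains vessel growth, rose by 3.52 ± 0.38 log2 units. Of complement and coagulation genes, 6 of 13 fell and 2 rose, 1 with the mouse as a replicate block or without MuSC replicates 04 or 05 or myoblast replicate 05. Clusterin, Clu, fell by 6.94 ± 0.39 log2 units, and the protease gene Masp1 rose by 6.32 ± 0.32 log2 units, from 0.025 ± 0.024 RPM in MuSCs to 82.8 ± 21.5 RPM in myoblasts.

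Growth factor genes rose in 21 of 66 cases and fell in 13. Within the Igf system, Igf1 had 640.1, 547 and 696 RPM in MuSCs and 15.7, 18.9 and 26.9 RPM in myoblasts and fell by 4.90 ± 0.23 log2 units, whereas Igf2, described above, rose. The binding protein Igfbp5 fell by 2.15 ± 0.35 log2 units and Igfbp3 rose by 2.09 ± 0.26 log2 units. The 2 Igf ligands moved in opposite directions. Nppc, a natriuretic peptide gene, had 751, 426 and 383 RPM in MuSCs and 0.037, 0.16 and 0.36 RPM in myoblasts, and fell by 8.73 ± 0.31 log2 units. Neurotrophin 3, Ntf3, fell by 6.66 ± 0.29 log2 units and endothelin 3, Edn3, by 6.78 ± 0.29 log2 units. Csf1, the growth factor of macrophages, had 9.93, 7.51 and 3.82 RPM in MuSCs and 384, 416 and 245 RPM in myoblasts and rose by 5.48 ± 0.34 log2 units, and the stress hormone gene Fgf21 had 0, 2.29 and 0.68 RPM in MuSCs and 60.6, 129 and 230.4 RPM in myoblasts and rose by 6.12 ± 0.56 log2 units. Gas6, the ligand of Axl, rose by 2.76 ± 0.29 log2 units. In the TGF-beta family, the inhibin subunit Inha rose by 5.28 ± 0.74 log2 units, and follistatin-like 1, Fstl1, had 2635, 2269 and 2368 RPM in MuSCs and 52.8, 51.5 and 43.9 RPM in myoblasts and fell by 5.59 ± 0.17 log2 units.

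Cytokine and chemokine genes fell in 19 of 45 cases and rose in 9, while their summed level was higher, 597, 975 and 1026 RPM in MuSCs and 9737, 17269 and 14163 RPM in myoblasts. Most of it in myoblasts was osteopontin, Spp1, a secreted matrix protein and cytokine, which had 0.2, 0 and 0.074 RPM in MuSCs and 9233, 16661 and 13665 RPM in myoblasts. Spp1 had the largest difference of all tested genes, 13.53 ± 0.24 log2 units, and was among the genes switched on. Ccl19 fell by 6.21 ± 0.41 log2 units, while Cxcl12, which attracts cells through Cxcr4, rose by 2.98 ± 0.29 log2 units and Cx3cl1 by 3.30 ± 0.64 log2 units. Of Wnt ligands and antagonists, 3 of 12 rose and 5 fell, 3 without myoblast replicate 06, and Wnt9a rose by 3.86 ± 0.33 log2 units while Wnt4 fell by 1.40 ± 0.36 log2 units. Semaphorins, slits and netrins rose in 8 of 24 cases and fell in 5. Sema3e had 0.34, 0.029 and 0.14 RPM in MuSCs and 246, 254 and 166 RPM in myoblasts and rose by 7.56 ± 0.29 log2 units, so that this ligand rose where its receptor gene Plxnd1 fell.

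**Figure D5:**
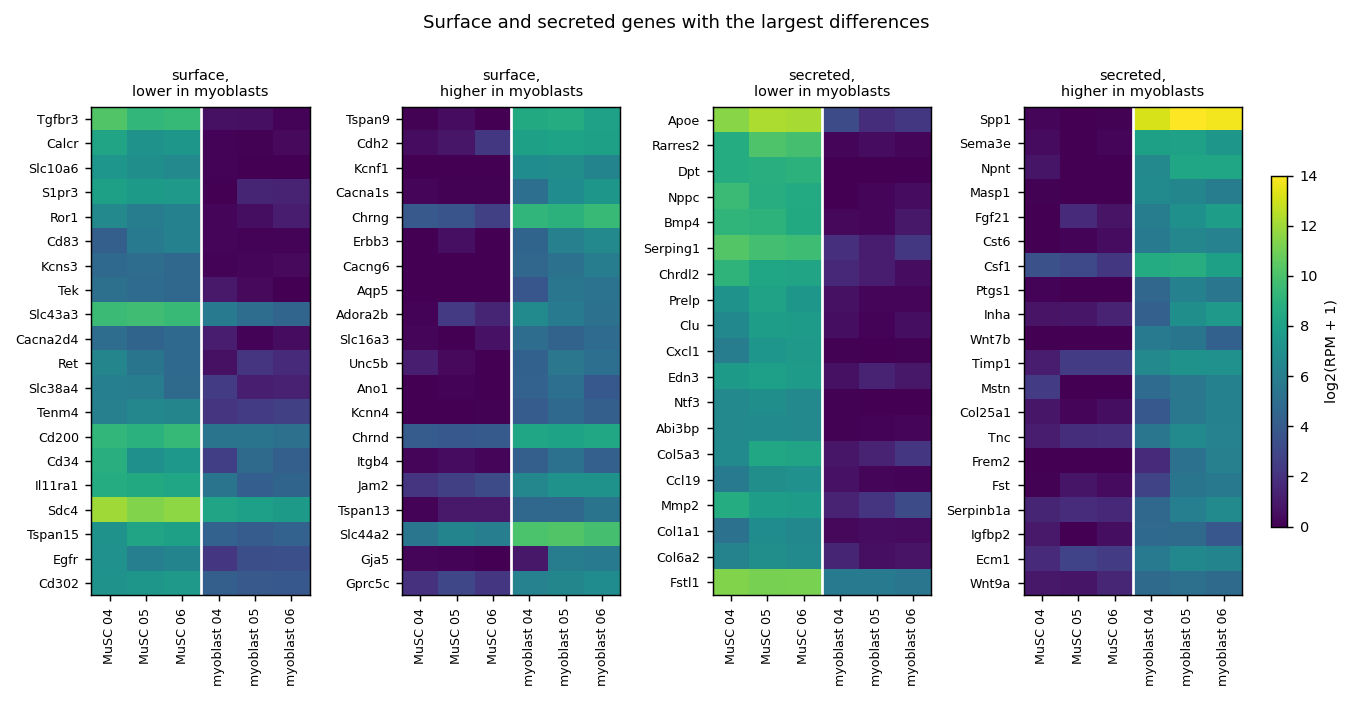
Level of the surface and secreted genes with the largest decreases and increases in myoblasts among those reported here, as log2(RPM + 1), with a column for each library. The 3 myoblast columns of Dpt and Slc10a6 and the 3 MuSC columns of Kcnf1 and Wnt7b are at or near 0. Gja5 and Frem2 are lower in myoblast replicate 04 than in the other myoblasts.

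Counted over all listed genes, 34 were switched on and 23 switched off by the limits given above. Secreted genes made up 10 of the 23 that were switched off and 5 of the 34 that were switched on. Surface genes made up 3 and 5 of them. For comparison, 403 of the 15345 tested genes were in the secreted class and 880 in the surface class. The genes switched off included the lysophosphatidic acid enzyme Enpp2, from 117 ± 10.5 RPM in MuSCs to 0.19 ± 0.12 RPM in myoblasts, the matrix protein vitronectin, Vtn, from 58.3 ± 33.7 RPM in MuSCs to 0.15 ± 0.084 RPM in myoblasts, and the ATP-degrading ectoenzyme Entpd2, from 94.8 ± 13.9 RPM in MuSCs to 0.19 ± 0.11 RPM in myoblasts. Those switched on included the thin filament protein Lmod3, from 0.02 ± 0.035 RPM in MuSCs to 184 ± 97.2 RPM in myoblasts, and the inhibitor of calcification Mgp, from 0.073 ± 0.13 RPM in MuSCs to 81.8 ± 25.3 RPM in myoblasts. The lipoxygenase Alox5 was listed at 0 in all MuSC libraries and at 88.2 ± 45.3 RPM in myoblasts. An exact 0 in a table of estimates does not show that a gene was silent.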

How the data were processed

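Libraries of 1000 cells were made with SMART-Seq HT and sequenced as single 75-base reads. The authors quantified transcripts with Kallisto 0.46.1 on the basic GENCODE annotation, used tximport to sum transcripts to genes and normalized the genes with DESeq2, which the submitters' processing notes also name. The deposited values are a signal, namely normalized counts that the authors obtained by dividing estimated counts by normalization factors. From 42.5% to 46.8% of the values under 30 in a library were whole multiples of a fitted step (tolerance 0.02), so reads were not recovered and the depth is unknown. Fold changes and p-values of the authors in the same table, and the table of the genotype comparison, were not used. Whether counting used strand was not given in the sources used here.

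Columns were assigned to libraries by the mouse number in their names. RPM set the mean total of the 6 libraries to 1000000, and limma 3.58.1 in R 4.3.3 (trend and robust) fitted log2(RPM + 1) on group alone, with p-values adjusted by Benjamini-Hochberg over 15345 genes. Differences of low genes are understated on this scale. The script was tested on simulated data. Tables and figures were made with Python 3.11.15, pandas 2.3.3, numpy 2.4.6 and matplotlib 3.10.9. The 3 libraries of a group come from 3 mice, and no batch or date is labelled. The column names of MuSC replicates 04 and 06 and myoblast replicate 04 carry an added digit, whose meaning was not given. The labels give the MuSC and the myoblast library of a mouse the same number, and the deviations of such pairs from their group means correlated at -0.0314, -0.00502 and 0.0180. The blocked fit was run as an alternative, since the study's methods state no block.

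The lists, classes and naming rule were chosen with earlier results of these data known. A gene was named as a key gene of a list, as one of the 5 largest rises or falls of its list or the 20 largest of its class or of all genes (called, groups not overlapping, at least 20 RPM in the higher group), as one of the 3 most abundant of its list, or as a cell type marker. Alox5, Cav1, Enpp2, Entpd2, Fzd7, Gbp3, Gm10800, Irgm1, Mgp, Myl1 and Pycr1, and the promoter motifs, were chosen after their values were seen. Some genes that the rule names are not reported here. Promoters are RefSeq windows on GRCm38.p6, matched by symbol. Their build is not that of the annotation used for quantification.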

Additional observations from a re-analysis of the deposited data

How the results depend on the processing

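Under pseudocounts of 0.1 and 5, no filter, 3 other scalings and limma without trend and robust options, 6260 to 6602 genes were called, against 6566. A filter of at least 10 normalized counts in every library tested fewer genes and called 5278, and adding a fold of at least 1 log2 unit to the threshold left 4880. A replicate block for the mouse left 6078 genes called (3191 higher and 2887 lower), of which 5883 kept the direction of the fit without it, and among the genes named the block changed the call of Jun only. Leaving out a library gave 5032 to 6910 calls, 2642 to 3585 higher and 2390 to 3325 lower, with the fewest without myoblast replicate 05 and the most without myoblast replicate 04. The 265 called genes that the text names kept their direction under each alternative that tested them, and Fzd7 and Mcm3 lost their call when a library was left out, while the others kept theirs. Among genes not called, the sign of Myh2 reversed with a pseudocount of 0.1 (-0.066 log2 units), and the cause was not tested. Leaving out a library moved the difference of Myh2 between -0.55 and 0.85, Igf1r between -0.48 and 0.45, Hes1 between -1.06 and 0.44, Vegfa between -0.20 and 0.21 and Pcna between -0.62 and 0.15 log2 units. With 3 libraries a group and an unknown read depth, differences of this size in either direction could not be settled.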

Other observations

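Further gene groups showed these counts. Proteasome subunits had 8 higher and 10 lower of 43, and the regulatory particle gene Psmd3 rose by 1.32 ± 0.18 log2 units. Chaperonins and chaperones of the endoplasmic reticulum had 6 higher and 1 lower of 29, with 3 higher without MuSC replicates 04 or 06 or myoblast replicates 05 or 06, and 2 lower without MuSC replicate 06 or myoblast replicate 04. The collagen chaperone Serpinh1 had 149, 241 and 243 RPM in MuSCs and 1021, 751 and 598 RPM in myoblasts and rose by 1.90 ± 0.26 log2 units, while collagens had 7 higher and 15 lower of 33. Fatty acid synthesis genes had 1 higher and 4 lower of 14, with 2 higher without myoblast replicates 04 or 06 or with each library scaled to its own total. The desaturase gene Scd1 had 32.8, 45.1 and 68.6 RPM in MuSCs and 1.74, 2.12 and 2.01 RPM in myoblasts and fell by 4.01 ± 0.34 log2 units, while malic enzyme, Me1, had 4.61, 1.98 and 2.29 RPM in MuSCs and 36.4, 67.7 and 37.5 RPM in myoblasts and rose by 3.60 ± 0.37 log2 units. Zinc finger genes had 15 lower and 5 higher of 54, with 12 higher without myoblast replicate 04, 2 or 3 without MuSC replicates 05 or 06 or myoblast replicates 05 or 06, and 9 with each library scaled to its own total. The developmental regulator Osr2 fell by 4.93 ± 0.34 log2 units, from 57.8 ± 20.4 RPM in MuSCs to 0.87 ± 0.26 RPM in myoblasts. Forkhead genes had 4 higher and 5 lower of 22, and genes of the E2f, DP and Myb families 3 higher and 2 lower of 17, 1 lower without MuSC replicate 06.

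Immunoglobulin adhesion molecules had 12 higher and 11 lower of 41, with 7 lower without myoblast replicate 05. The adhesion molecule Cadm1 rose by 2.94 ± 0.40 log2 units and Igsf3 fell by 2.40 ± 0.28 log2 units. Laminins and basement membrane genes had 8 higher and 10 lower of 28. Enzymes of prostaglandin synthesis differed in direction, since Ptgs1 rose by 5.38 ± 0.41 log2 units, from 0.038 ± 0.066 RPM in MuSCs to 46.3 ± 23.6 RPM in myoblasts, and the prostaglandin D synthase Ptgds fell by 4.08 ± 0.39 log2 units. Schwann cell markers summed to 702, 746 and 787 RPM in MuSCs and 55.7, 42.5 and 33.3 RPM in myoblasts, mostly from the myelin gene Pmp22, which fell by 4.22 ± 0.24 log2 units.

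The predicted gene Gm10800, chosen after its values were seen and of a family with possible near-identical copies, had 79.5, 21.2 and 53.8 RPM in MuSCs and 10161, 972 and 2868 RPM in myoblasts. Myoblast replicate 04 held the highest of these values.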
